A study of Mus musculus with 6 samples.

Results

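The genes described here are 10 genes of the integrated stress response: Atf4, Atf3, Atf5, Ddit3, Cebpb, Chac1, Asns, Trib3, Ppp1r15a and Sesn2. They were taken by name from 19938 genes measured on Affymetrix gene arrays of mouse leukaemia cells, and all 10 were measured, each by 1 probe set. The cells were pre-B cells of the strain 129P2/OlaHsd transformed with BCR-ABL1, the fusion kinase of Philadelphia chromosome-positive acute lymphoblastic leukaemia. They carried 1 floxed and 1 unfloxed allele of Ptpn6 (Ptpn6 +/fl), which encodes the phosphatase SHP-1, and the study asked what Ptpn6 does in these cells. In 1 group of 3 arrays the cells had been transduced with PMIP-CRE-ERT2, in which a modified oestrogen receptor domain keeps Cre recombinase inactive in the absence of tamoxifen. In the other group of 3 arrays they had been transduced with PMIP-ERT2, which holds that domain without Cre. Both groups had the same floxed genotype, were resistant to puromycin and received 0.5 micromolar 4OH-Tamoxifen for 2 days. An effect of Cre itself and an effect of losing the floxed allele cannot be told apart in this design, and recombination would leave the unfloxed allele in place. The labels do not say whether the 3 samples of a group were separate cultures. Every p-value is taken against the spread of these 6 samples, averaged in part over all genes, and so may reflect technical variation alone.

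The integrated stress response begins with kinases that phosphorylate the initiation factor eIF2 when amino acids are short, when unfolded protein collects in the endoplasmic reticulum, when haem is lacking or when viral RNA is present. Translation in general then slows while the messenger RNA of ATF4, a basic leucine zipper (bZIP) transcription factor, is translated more, so ATF4 activity is set largely after transcription. ATF4 binds DNA as a dimer with C/EBP family proteins and switches on genes for amino acid synthesis, amino acid uptake and transfer RNA charging, together with factors that limit the response or promote cell death.

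Facts of the whole data set were as follows. Median log2 expression was 7.90 to 7.96 on the CRE-ERT2 arrays and 7.93 to 7.98 on the ERT2 arrays. Ptpn6 had log2 values of 11.36, 11.25 and 11.20 on the CRE-ERT2 arrays, against 11.25, 11.39 and 11.39 on the ERT2 arrays, and did not pass the test (log2 change -0.07 ± 0.08 SE, limma adjusted p = 0.759). The position of its probe set relative to the floxed exons is unknown, and so this value is no check of the labels. The pre-B cell label was checked on 13 marker genes, of which 12 were measured. The surrogate light chain gene Igll1 averaged 14.46 on CRE-ERT2 arrays and 14.40 on ERT2 arrays, the B-lineage factor gene Pax5 12.57 on both, and the receptor component gene Cd79a 13.81 on CRE-ERT2 arrays and 13.63 on ERT2 arrays. Of the 12, the lymphoid polymerase gene Dntt rose by 0.48, the recombinase gene Rag2 fell by 0.53 and the IL-7 receptor gene Il7r fell by 0.43, and the part of such differences in the results below was not tested. Mean levels of the 28 measured T cell, myeloid, erythroid and stromal markers lay between 5.84 and 8.94, and 0 of them passed the test (1, the myeloid gene Lyz2, had an unadjusted p under 0.05 with limma). Those of the 12 pre-B cell markers ran from 8.42, for Rag2, to 14.43, so Rag2 did not stand above the range of the other cell types. Signal over background is unknown, since detection calls were not used here. Mean levels of Atf3 (8.49), Atf5 (8.51), Ddit3 (8.59), Cebpb (8.20), Ppp1r15a (8.45) and Trib3 (8.72) also lay between 5.84 and 8.94.

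Of the 10 genes, 3 were lower and 1 was higher in CRE-ERT2 cells. Chac1 fell 1.84-fold, Asns fell 1.59-fold, Trib3 fell 1.24-fold and Sesn2 rose 1.505-fold. All 4 encode proteins that act downstream in the response. The other 6 genes did not pass the test, Atf4 among them and also Atf3 and Ppp1r15a, which are themselves induced in the response. The test was limma with p adjusted by the Benjamini-Hochberg method over all 19938 genes and a threshold of 0.05. Over all genes tested, 2.28% were lower and 2.3% were higher in CRE-ERT2 cells, and 4.58% passed in either direction. The 3 CRE-ERT2 arrays did not overlap the 3 ERT2 arrays for 6 of the 10 genes, against 22.5% of all genes. They lay wholly lower for 5 (15.5% of all genes) and wholly higher for 1 (6.92%). The median log2 change of the 10 genes was -0.09, against -0.03 for all genes tested. In bulk samples, a smaller share of cells that express a gene and less of its RNA in each cell cannot be told apart.

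**Figure D1:**
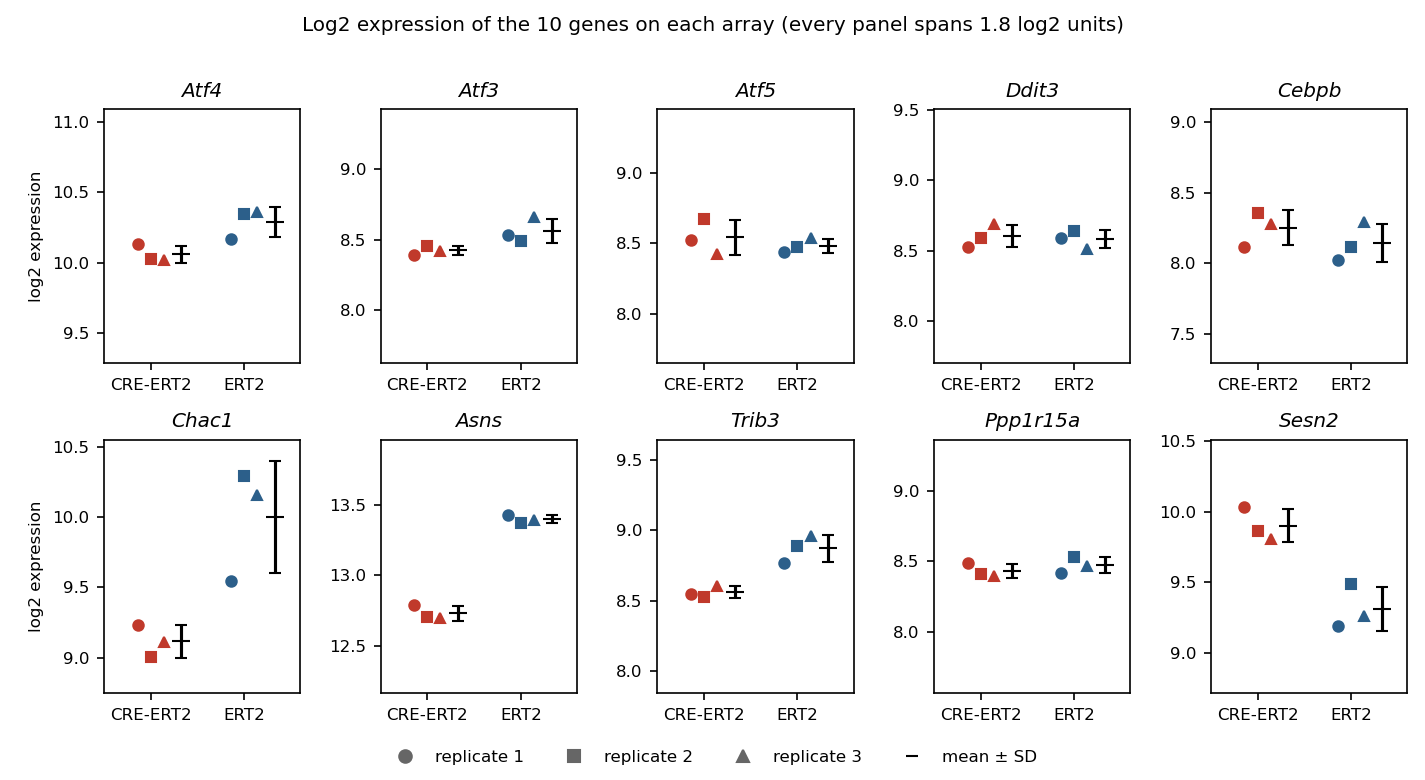
Log2 expression (y axis) of the 10 genes on the 3 CRE-ERT2 arrays (red, left) and the 3 ERT2 arrays (blue, right), with the mean and SD of each group in black and replicates marked by shape. Asns, Chac1 and Trib3 lie wholly lower on the CRE-ERT2 arrays, Sesn2 lies wholly higher, and Ddit3, Atf5, Cebpb and Ppp1r15a overlap.

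Atf4, the central transcription factor, had log2 values of 10.13, 10.03 and 10.02 on the CRE-ERT2 arrays, against 10.17, 10.35 and 10.36 on the ERT2 arrays. The groups did not overlap, but the gap between the nearest arrays, CRE-ERT2 replicate 1 and ERT2 replicate 1, was only 0.034. The mean was 10.06 ± 0.06 in CRE-ERT2 cells and 10.29 ± 0.11 in ERT2 cells (SD, n = 3 each), a log2 change of -0.23 with a 95% confidence interval from -0.40 to -0.06. It did not pass over all genes (limma adjusted p = 0.138, unadjusted p = 0.0122), nor under any of the 14 alternatives tried, where the change ran from -0.29 to -0.17 and adjusted p from 0.0755 to 0.393. These arrays read Atf4 messenger RNA and not the protein, which is set largely by translation.

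The transcription factor genes that act beside or below ATF4 showed no change past the threshold. Atf3, a bZIP factor induced by ATF4 that can repress stress genes, had log2 values of 8.39, 8.46 and 8.42 on the CRE-ERT2 arrays, against 8.53, 8.49 and 8.66 on the ERT2 arrays. Its groups did not overlap, by 0.032, and the change was -0.14 (95% confidence interval -0.30 to 0.02, limma adjusted p = 0.4004). Atf5, a relative of ATF4 whose translation is controlled in a similar way, had 8.52, 8.67 and 8.42 on the CRE-ERT2 arrays, against 8.43, 8.47 and 8.53 on the ERT2 arrays, and the groups overlapped. Its change of 0.06 (95% confidence interval -0.11 to 0.24) turned to -0.0062 without CRE-ERT2 replicate 2, the array on which it was highest.

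Ddit3 encodes CHOP, a C/EBP-related factor that promotes cell death under lasting stress. It had log2 values of 8.53, 8.59 and 8.69 on the CRE-ERT2 arrays, against 8.59, 8.64 and 8.51 on the ERT2 arrays. The change was 0.02, with a 95% confidence interval from -0.14 to 0.18, so the interval leaves out a ratio of array values above 1.14 or below 0.906. At this level, in the range of the off-lineage markers, the ratio of RNA could be larger than that of the array values. Its sign turned without CRE-ERT2 replicate 3 (-0.022) or without ERT2 replicate 3 (-0.013). Cebpb, a C/EBP partner of ATF4 on DNA, had 8.12, 8.36 and 8.28 on the CRE-ERT2 arrays, against 8.03, 8.11 and 8.29 on the ERT2 arrays. ERT2 replicate 3 lay among the CRE-ERT2 arrays, and the change of 0.11 (95% confidence interval -0.09 to 0.30) did not pass (limma adjusted p = 0.651).

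Ppp1r15a encodes GADD34, the stress-induced subunit that brings protein phosphatase 1 to eIF2 and so ends the response. It had log2 values of 8.49, 8.41 and 8.39 on the CRE-ERT2 arrays, against 8.42, 8.53 and 8.47 on the ERT2 arrays. The groups overlapped, the range over all 6 arrays was 0.14, which was the narrowest of the 10 genes, and the change was -0.04 (95% confidence interval -0.20 to 0.11, limma adjusted p = 0.869). The intervals of Atf5, Ddit3, Cebpb and Ppp1r15a all include 0, and that of Cebpb is the widest and reaches 0.30.

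Asns encodes asparagine synthetase, which makes asparagine from aspartate and glutamine and is a standard target of ATF4 when amino acids are short. Its log2 values were 12.79, 12.70 and 12.70 on the CRE-ERT2 arrays, against 13.43, 13.37 and 13.39 on the ERT2 arrays. The arrays of each group lay close together and the gap between the groups was 0.58. The mean was 12.73 ± 0.05 in CRE-ERT2 cells and 13.40 ± 0.03 in ERT2 cells (SD, n = 3 each), so the within-group SDs were below the median over all genes and groups of 0.088. The log2 change was -0.67 ± 0.07 (SE), a ratio of 0.630 (95% confidence interval 0.567 to 0.700), with a limma adjusted p of 9.47e-05, and 90 genes of the whole table had a smaller p. The call held under all 14 alternatives, with adjusted p from 1.42e-08 to 0.00879 and changes from -0.70 to -0.62.

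Chac1 encodes an enzyme that breaks down glutathione and is induced by ATF4. It had log2 values of 9.24, 9.01 and 9.11 on the CRE-ERT2 arrays, against 9.55, 10.29 and 10.16 on the ERT2 arrays. The ERT2 arrays were spread widely, with replicate 1 lowest and only 0.31 above the highest CRE-ERT2 array. The mean was 9.12 ± 0.12 in CRE-ERT2 cells and 9.998 ± 0.40 in ERT2 cells (SD, n = 3 each), a log2 change of -0.88 ± 0.15 (SE) and a ratio of 0.543 (95% confidence interval 0.433 to 0.682, limma adjusted p = 0.00419). This was the largest change of the 10 genes, and 28 genes of the whole table had a more negative one. It was -1.11 without ERT2 replicate 1 and stayed past the threshold whichever array was left out, but not with all 35556 probe sets in the test (adjusted p = 0.130).

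Trib3 encodes a pseudokinase that binds ATF4 and dampens its activity. Its log2 values were 8.55, 8.53 and 8.61 on the CRE-ERT2 arrays, against 8.77, 8.89 and 8.96 on the ERT2 arrays. The groups did not overlap, with a gap of 0.16, and the log2 change was -0.31 ± 0.08 (SE), a ratio of 0.805 (95% confidence interval 0.719 to 0.902, limma adjusted p = 0.0339). Leaving out single CRE-ERT2 arrays ended that call, with an adjusted p of 0.0966 for replicate 1, 0.133 for replicate 2 and 0.102 for replicate 3. So did leaving out ERT2 replicate 2 (0.0741) or replicate 3 (0.0936). It also ended with the replicate number as a block (0.0848) and with all probe sets in the test (0.153). The change itself stayed between -0.36 and -0.27 throughout.

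Sesn2 encodes sestrin 2, which restrains the growth kinase complex mTORC1 when leucine is short and is induced both by ATF4 and by p53. Its log2 values were 10.03, 9.86 and 9.81 on the CRE-ERT2 arrays, against 9.19, 9.49 and 9.26 on the ERT2 arrays. All 3 CRE-ERT2 arrays were higher, by at least 0.32. The mean was 9.90 ± 0.12 in CRE-ERT2 cells and 9.31 ± 0.15 in ERT2 cells (SD, n = 3 each), a log2 change of 0.59 ± 0.09 (SE) and a ratio of 1.505 (95% confidence interval 1.31 to 1.73, limma adjusted p = 0.00224). The call held whichever array was left out, with changes from 0.52 to 0.68, and ended with all probe sets in the test (adjusted p = 0.0684).

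**Figure D2:**
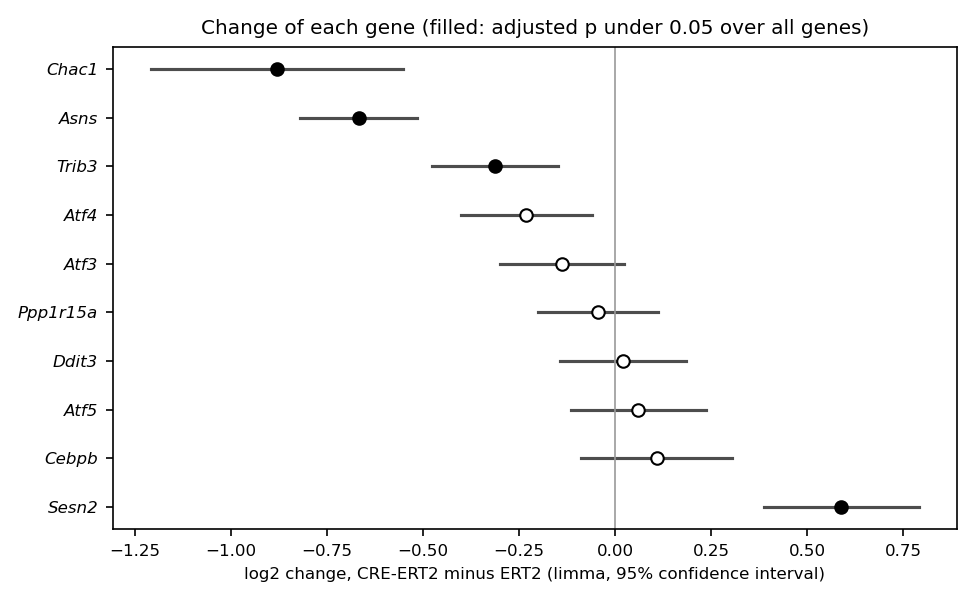
Log2 change (x axis, CRE-ERT2 minus ERT2) of each gene with its 95% confidence interval from limma; filled points passed at an adjusted p under 0.05. Chac1, Asns and Trib3 lie below 0 and Sesn2 above it, and the intervals of Atf3, Ppp1r15a, Ddit3, Atf5 and Cebpb cross 0.

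The ERT2 arrays differed among themselves in several of these genes. ERT2 replicate 1 was the lowest of the 3 ERT2 arrays for 7 of the 10 genes, Sesn2 included, whereas it was the lowest for 22.9% of all genes. For Chac1 and Trib3, which fell, and for Atf4, which did not pass, ERT2 replicate 1 was the ERT2 array nearest to the CRE-ERT2 arrays, while for Asns and Sesn2 it was the farthest from them. Limma's array weights were also smallest for this array (0.680). Its part in the results is measured by leaving it out: the changes of Atf4 (-0.29), Chac1 (-1.11) and Trib3 (-0.36) were then larger in size, and those of Asns (-0.65) and Sesn2 (0.53) smaller.

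The sequences before the starts of the 4 genes that passed are shown because ATF4 and C/EBP dimers bind a known element, written here as TGATGNAA. All 10 genes had an entry in the RefSeq promoter table of mouse build GRCm38.p6, which gives 250 bases before and 50 after each start, with 2 windows for Atf5. Each line below gives the 250 bases before the start, read along the gene's own strand, with matches to the element on either strand in capitals. Asns lies at chr6:7693210-7693459 (minus strand), Chac1 at chr2:119350992-119351241 (plus), Trib3 at chr2:152344061-152344310 (minus) and Sesn2 at chr4:132510457-132510706 (minus).
Asns: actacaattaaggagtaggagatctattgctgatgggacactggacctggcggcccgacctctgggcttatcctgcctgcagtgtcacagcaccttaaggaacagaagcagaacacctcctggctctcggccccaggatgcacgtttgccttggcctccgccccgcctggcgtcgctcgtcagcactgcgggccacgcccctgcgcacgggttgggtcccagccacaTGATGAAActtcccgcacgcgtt
Chac1: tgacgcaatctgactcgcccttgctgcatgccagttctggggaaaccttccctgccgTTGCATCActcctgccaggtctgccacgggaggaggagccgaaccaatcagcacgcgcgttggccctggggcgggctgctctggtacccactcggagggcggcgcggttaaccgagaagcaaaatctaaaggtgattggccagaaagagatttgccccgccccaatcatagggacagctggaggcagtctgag
Trib3: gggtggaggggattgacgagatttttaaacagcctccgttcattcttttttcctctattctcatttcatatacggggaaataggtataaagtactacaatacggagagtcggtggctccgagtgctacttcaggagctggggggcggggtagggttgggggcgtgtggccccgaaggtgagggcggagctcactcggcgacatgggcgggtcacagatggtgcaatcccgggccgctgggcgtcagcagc
Sesn2: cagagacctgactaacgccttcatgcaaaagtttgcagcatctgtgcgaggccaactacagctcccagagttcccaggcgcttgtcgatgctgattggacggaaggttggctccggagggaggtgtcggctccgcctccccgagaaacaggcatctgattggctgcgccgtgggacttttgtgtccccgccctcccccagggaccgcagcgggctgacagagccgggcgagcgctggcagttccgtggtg

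Asns held TGATGAAA from 23 to 16 bases before its start, on its own strand. Chac1 held TTGCATCA, the element on the opposite strand, from 193 to 186 bases before its start. Trib3 had no match before its start and 1 after it, at bases 15 to 22 of the transcript, which with 6 bases on either side reads tcaggtTTACATCAgccggg. Sesn2 had no match in its window, which says only that these letters are not there. Among the 6 genes that did not pass, only Atf3 held the element, in tcgcacTTGCATCAccaagt at 110 to 103 bases before its start. The element was found for all 3 of the genes that fell and for 4 of the 10 genes, against 4.51% of the 27025 genes in the table (3.97% of 32851 windows). Among the other ATF4 targets described below, 24 had a window and 7 of these held the element, of which 1, Slc1a4, fell, while 9 of the 24 fell in all. The cyclic AMP response element TGACGTCA, which reads the same on both strands, was found only for Ppp1r15a among the 10, from 12 to 5 bases before its start, and in 1.79% of all windows. A match to these letters does not show that a protein binds there.

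Beyond the 10 genes, other targets of ATF4 were lower in CRE-ERT2 cells. Among 31 measured genes there were 11 that fell (35.5%, against 2.28% of all genes), 0 that rose and 20 short of the threshold. Their median log2 change was -0.24, against -0.03 for all genes. The list was chosen with earlier results of these data known, so the contrast with all genes is no independent test. The share of all genes also depends on level. With the dimmest genes left out, 720 of 13292 genes fell and 540 rose, and 13 of the listed targets fell. The alanine transaminase gene Gpt2 averaged 8.06 ± 0.14 in CRE-ERT2 cells and 8.95 ± 0.15 in ERT2 cells (SD, n = 3 each, log2 change -0.89, limma adjusted p = 0.000103). The neutral amino acid transporter gene Slc1a4 (-0.74), the RagD GTPase gene Rragd (-0.55), which acts in amino acid signalling to mTORC1, and the mitochondrial folate enzyme gene Mthfd2 (-0.54) also fell. The mean level of Gpt2 (8.50) lay in the range of the off-lineage markers, and those of Slc1a4 (9.73), Rragd (9.40) and Mthfd2 (12.07) above it. Of the 31, 25 had a negative change. The number that fell was 5 when CRE-ERT2 replicate 3 was left out, 6 when CRE-ERT2 replicate 2 was, 6 with the replicate number as a block and 4 with all probe sets tested, while 0 rose under any of the 14 alternatives.

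Genes that load amino acids onto transfer RNA were lower as well. The 12 measured were 11 aminoacyl-tRNA synthetase genes and the transfer RNA exporter gene Xpot. Of these, 7 fell (58.3%, against 2.28% of all genes), 0 rose and 5 missed the threshold, and the median log2 change was -0.31. Those named by rule are the synthetase genes for cysteine, Cars (-0.48), leucine, Lars (-0.46), asparagine, Nars (-0.38), and tyrosine, Yars (-0.33), with limma adjusted p from 0.00297 to 0.0273. For all 12 the 3 CRE-ERT2 arrays lay wholly below the 3 ERT2 arrays, against 15.5% of all genes in that direction. The 12 genes had mean levels between 10.90 and 13.41, whereas both shares of all genes include dim genes. With the dimmest genes left out, 720 of 13292 genes fell and 540 rose, and 10 of the 12 fell. After a further quantile normalization 7 of the 12 fell, with changes of -0.42 for Cars and -0.26 for Yars. How far level accounts for the contrast with all genes was not tested. The number that passed depended on single arrays: it was 1 when CRE-ERT2 replicate 3 was left out, 2 when ERT2 replicate 1 was and 3 when CRE-ERT2 replicate 2 was. It was 3 with the replicate number as a block and 0 with all probe sets tested (Cars then had an adjusted p of 0.0541).

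Upstream of ATF4, 1 gene passed. Of 17 genes for the eIF2 kinases, eIF2, its exchange factor eIF2B and their regulators, 1 fell, 0 rose and 16 missed the threshold. That share (5.88%) is near the 4.58% of all genes that passed in either direction, and the median log2 change was -0.13. Of the 17, 15 had a negative change and 4 had an unadjusted p under 0.05 with limma. For 9 the CRE-ERT2 arrays lay wholly below the ERT2 arrays, against 15.5% of all genes, and for 0 wholly above. Eif2b3, a subunit of eIF2B, averaged 11.06 ± 0.13 in CRE-ERT2 cells and 11.52 ± 0.09 in ERT2 cells (SD, n = 3 each), a log2 change of -0.46 (limma adjusted p = 0.00640). That call was lost without CRE-ERT2 replicate 3 (adjusted p = 0.0565) and with all probe sets tested (0.0944). Eif2s2, the beta subunit of eIF2, changed by -0.26 and did not pass (adjusted p = 0.0914), but passed with the mean of its probe sets (log2 change -0.35, 0.0199), with the dimmest genes left out (0.0494) and with a trended, robust variance (0.0123). Phosphorylation of eIF2, the step that starts the response, is not read by these arrays.

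Genes of the other arms of endoplasmic reticulum stress, run by IRE1 and ATF6, did not pass in either direction. Of 20 measured, 0 passed with limma, 0 had an unadjusted p under 0.05, and the median log2 change was -0.04. Over all genes 4.58% passed in either direction, so 0 passing in a list this short is near that share. The smallest p belonged to the chaperone genes Creld2 (-0.17, adjusted p = 0.327) and Dnajb11 (-0.16, adjusted p = 0.374). Of 19 bZIP relatives of ATF4, 0 passed, which is also near the share over all genes, with 4 at an unadjusted p under 0.05. The median was -0.02. Mafg, a small MAF factor, changed by -0.19, and Nfe2l2, which encodes the oxidative stress factor NRF2, by 0.18. Nfe2l2 passed after a further quantile normalization (adjusted p = 0.0454) and with a trended, robust variance (0.0331). Whether the lists differ from one another was not tested.

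Among 6 paralogs of the effector genes, 1 rose (16.7%, against 2.3% of all genes), 0 fell and 5 missed the threshold. The gene that rose was Sesn3, a sestrin gene known as a FOXO target, with a log2 change of 0.31 (11.06 ± 0.08 in CRE-ERT2 cells and 10.75 ± 0.08 in ERT2 cells, SD, n = 3 each, limma adjusted p = 0.0368). Its call ended when CRE-ERT2 replicate 1 (0.0893), 2 (0.0594) or 3 (0.192) was left out, and when ERT2 replicate 2 (0.0971) or 3 (0.0785) was. It was lost as well with the replicate number as a block (0.0930) and with all probe sets tested (0.170). Chac2, a glutathione-degrading relative of Chac1, changed by -0.20 and did not pass (adjusted p = 0.273). Sesn1, another sestrin gene, changed by -0.02, and the Trib3 relatives Trib1 and Trib2 by -0.01 and -0.12, none of which passed (named after their values were seen).

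Sesn2 is also listed among p53 targets, and the part of p53 or of ATF4 in its rise was not tested. Among 21 other p53 targets there were 6 that rose (28.6%, against 2.3% of all genes), 0 that fell and 15 short of the threshold. Their median log2 change was 0.16. The list was chosen with earlier results of these data known and does not hold every p53 target, so the share is that of these 21 genes only. Sesn1, which changed by -0.02 and did not pass, was counted among the paralogs and not here. The polo-like kinase gene Plk2 rose by 0.98, the RNA-binding protein gene Zmat3 by 0.55, the receptor gene Eda2r by 0.52 and the autophagy regulator gene Trp53inp1 by 0.47, with limma adjusted p from 5.41e-05 to 0.00201. The number that rose was 3 with all probe sets tested. The stress kinase gene Plk3, which changed by -0.28 and did not pass (adjusted p = 0.0749, named after its value was seen), was lower past the threshold with the dimmest genes left out (0.0412), with array weights (0.0378) and without ERT2 replicate 1 (0.0394).

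**Figure D3:**
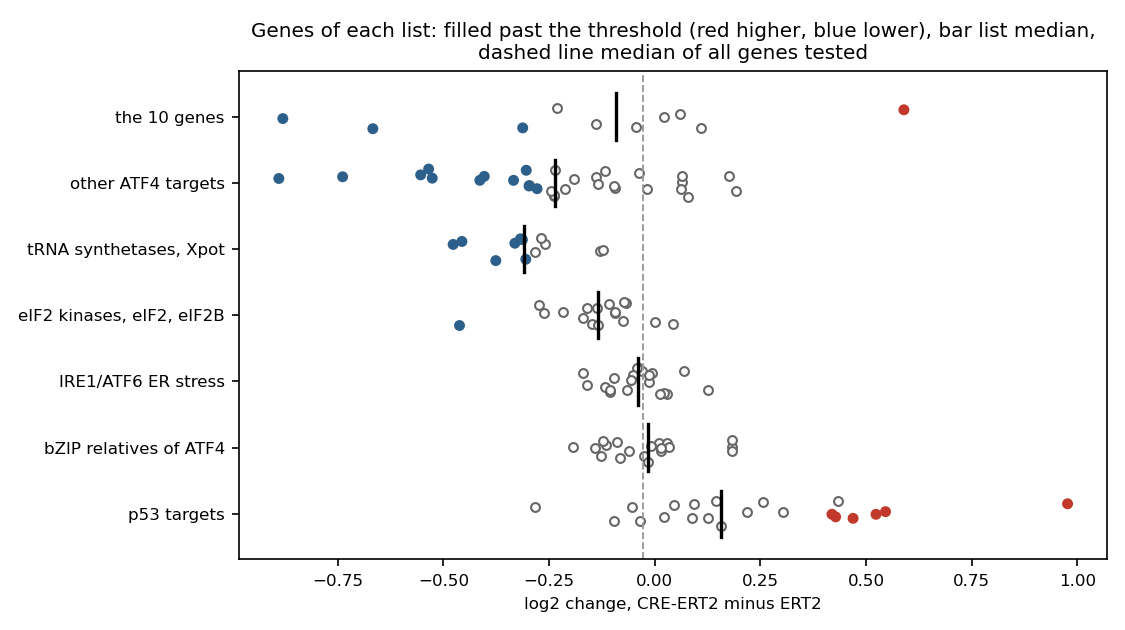
Log2 change (x axis, CRE-ERT2 minus ERT2) of each measured gene of 7 lists, 1 point a gene; filled points passed (blue lower, red higher), bars are list medians and the dashed line is the median of all genes (-0.03). The medians of other ATF4 targets (-0.24) and of tRNA synthetase genes (-0.31) lie to the left of that line and that of p53 targets (0.16) to its right.

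Likeness over the 6 arrays was measured as the root mean square difference between genes, each centred on its own mean log2 value, for Asns and Sesn2 against the other 19937 genes. The genes nearest to Asns were Pfkp, with a difference of 0.041, Abcg3 (0.047) and Trpc4 (0.050), whose log2 changes were -0.65, -0.61 and -0.63. Among the 10 genes the nearest to Asns was Trib3, at 0.19, then Atf4, at 0.23, and the farthest was Sesn2, at 0.64. The genes nearest to Sesn2 were AW112010 (0.046), Klf3 (0.049) and Il10ra (0.051), with changes of 0.57, 0.53 and 0.59. The measure weighs the size of the difference between the groups most, so it finds genes with a like change in the same direction.

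**Figure D4:**
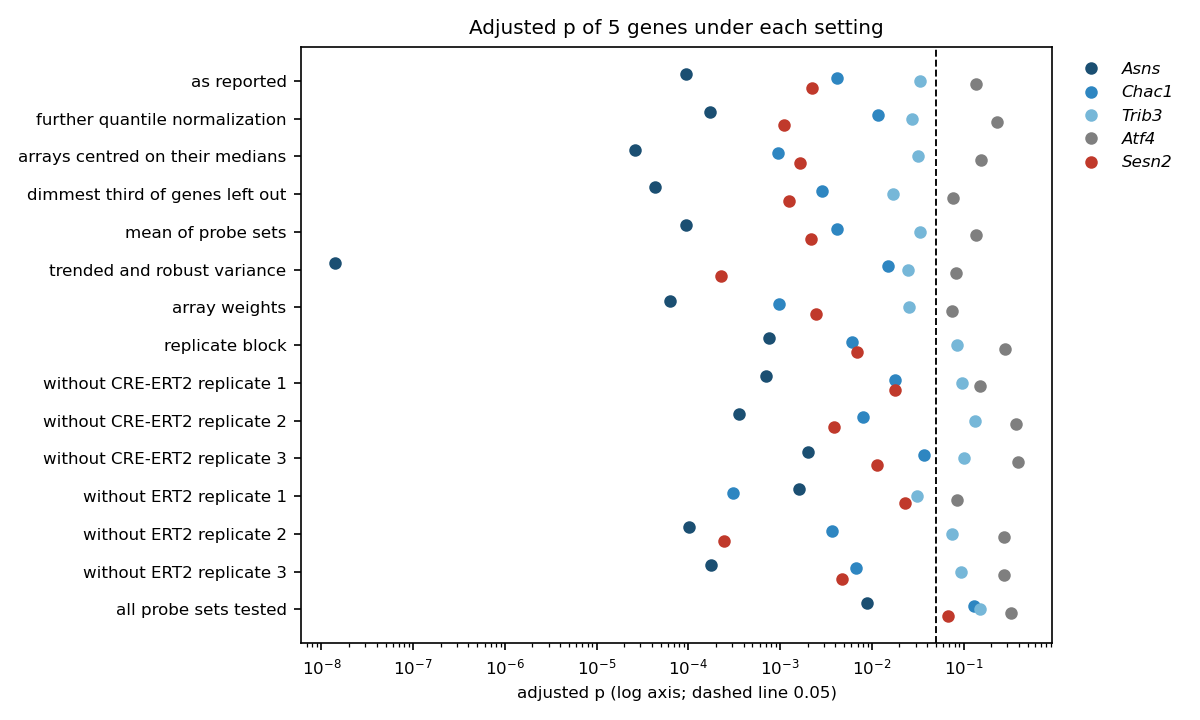
Adjusted p (x axis, log scale) of 5 genes under the reported setting and 14 alternatives (y axis), with a dashed line at 0.05. Asns lies left of the line throughout, Chac1 and Sesn2 cross it only when all probe sets were tested, Trib3 crosses it in 7 alternatives, and Atf4 lies right of it throughout.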

How the data were processed

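The authors deposited 1 table of log2 values with 35556 probe sets and 6 arrays. The submitters' processing notes name RMA and Partek 6.5 and no order of steps, and that the authors' values are log2 was read from their range. RMA as a method draws the changes of dim genes towards 0. Per the platform annotation, 21789 probe sets have 1 gene, and for each of 19938 genes its brightest probe set on average was used. CRE-ERT2 was compared with ERT2 with lmFit and eBayes of limma 3.58.1 (R 4.3.3), in two-sided tests adjusted over all genes by Benjamini-Hochberg. In 5 simulated data sets of the same 19938 genes, 46.8% of genes changed by 0.3, 98% by 0.5 and 100% by 1 or more on the log2 scale were called. Each set held 200 changed genes and independent normal noise at each gene's moderated SD. Noise shared between arrays was not simulated, so these shares need not hold for the arrays themselves. All 10 genes were named, and from each other list up to 4 passing genes with the largest change or, where fewer than 2 passed, those with the smallest p. The genes and lists were chosen with earlier results of these data known. Scan dates and detection calls were not used here, so batches could not be tested, and 6 arrays limit the precision.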

Additional observations from a re-analysis of the deposited data

How the results depend on the processing

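Asns kept its direction and its call under all 14 alternatives, and Chac1 and Sesn2 under 13. Without any 1 array the number of the 10 genes called lower ran from 2 to 3 and the number called higher stayed at 1. With all probe sets tested these were 1 and 0, and other ATF4 targets called lower were 4. In all, 298 probe sets then passed, against 914 genes as reported. Limma's unadjusted p was also larger in that fit, before any adjustment for the number of tests. It was 0.00269 for Chac1 (6.85e-05 as reported), 0.000783 for Sesn2 (2.97e-05) and 1.54e-05 for Asns (4.36e-07). The cause was not tested. A trended, robust variance gave 1544 genes. Leaving out single arrays gave 453 to 979 genes and 5 to 9 other ATF4 targets. Without single arrays the change of Atf5 ran from -0.0062 to 0.12 and that of Ddit3 from -0.022 to 0.059, and neither gene passed in any setting. A further quantile normalization moved the share of called genes that were higher to 61.4%, from 50.2% as reported. The replicate number as a block gave 589 genes and 6 other ATF4 targets, and 3 of 4 calls among the 10 genes held. Same-numbered arrays did not deviate together (correlations of -0.372 to -0.0719 over genes, with 0 of 3 CRE-ERT2 arrays closest to their own number), so the numbers were not taken as pairs. Some arrays with different numbers did deviate together. Deviations were taken from the mean of each group's 3 arrays, so negative correlations with 1 array bring positive ones with another. The correlation was 0.4485 for CRE-ERT2 replicate 1 with ERT2 replicate 2 and 0.3965 for CRE-ERT2 replicate 2 with ERT2 replicate 3. It was 0.1804 for CRE-ERT2 replicate 3 with ERT2 replicate 1. The cause of this sharing was not tested, and no fit took it into account. Signal over background is unknown, so how far it limits the changes of dim genes was not tested. The alternatives for genes outside the 10 and for lists other than the other ATF4 targets were chosen after seeing the data.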
